A study of Mus musculus with 2 samples.

Results

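The basement membrane and hemidesmosome genes are 34 of the 32285 genes counted in dorsal mouse skin, and each was found by its symbol in the gene annotation of the count matrices, not by its values. They encode laminin chains, type IV collagen chains, the linkers and proteoglycans nidogen, perlecan and agrin, the parts of the hemidesmosome, the anchoring fibril, laminin-binding integrins, and proteins of the Fraser complex with nephronectin and pikachurin. Skin was taken from male C3H mice at 9 weeks of age, after a start at 7 weeks. Control mice received vehicle, and mice of the androgenetic alopecia (AGA) model received testosterone propionate (TP), an androgen ester, at 0.5 mg per day under the skin. Skin of 15 mice per condition was pooled and dissociated with collagenase, and each pool gave 1 droplet library, so that neither differences between mice nor differences between preparations can be measured. A further group that also received an antibody is not analysed here.

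A basement membrane is a thin sheet of matrix between an epithelium, vessel, nerve or muscle and the connective tissue next to it. Laminins, trimers of an alpha, a beta and a gamma chain, and type IV collagens, trimers of alpha chains, form separate networks, and nidogens and perlecan bridge them. Basal keratinocytes hold on to this sheet through hemidesmosomes, where integrin α6β4, collagen XVII and CD151 in the membrane connect laminin-332 outside with plectin and dystonin on the keratin filaments inside, and collagen VII fibrils tie the sheet to the dermis. In the hair follicle the same sheet separates the outer epithelium from the dermal sheath, and the dermal papilla, the fibroblast cluster that instructs follicle growth, keeps a matrix rich in basement membrane proteins during growth.

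The assay counts molecules of RNA from their 3′ ends by a short identifier (UMI) attached before PCR, and levels are UMIs of a gene per 1000000 UMIs of the same cells (CPM). CPM of a gene was compared between cell classes or libraries. Levels of different genes were set beside each other only in ranks of level and in the collagen pairs. The control library held 39076 cells with a median of 2048 UMIs, and the TP library held 18542 cells with a median of 4828. Of the barcodes before filtering, 303 occurred in both libraries. Classes were named from marker genes after clustering without the members, so "DPC-like" stands for dermal papilla, "DF-like" for dermal fibroblast and "IFE" for interfollicular epidermis. Outer bulge-like cells made up 588 control and 1623 TP cells, DPC-like cells 4009 and 1340, DF-like cells 137 and 593, and IFE basal-like cells 2548 and 2771. In 9 clusters no name passed the marker rule, and they are called by their leading genes. Where a sentence gives 2 levels of a gene in a class, the first is control and the second TP. Values in parentheses are 95% intervals for counting error only, and with 1 library per condition no test between conditions exists. A member was tested where both libraries together held at least 50 of its UMIs, and it was counted as past 2-fold where its CPM, with 1 UMI added per library, differed 2-fold or more. For every member and class or cluster named below as past 2-fold, the interval of the ratio did not hold 1, apart from Lamb3 in the cluster led by Hbb-bs.

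Of 23 classes and unnamed clusters compared, 25 members had the same highest one in both libraries and 9 had another. Of these 9, only Dst had separate intervals for its highest and next ones in both libraries. For Lama2, Lama3, Lama4, Lamc3, Nid1, Hspg2, Plec and Frem2 the intervals overlapped in control, in TP or in both. The share of all genes with another highest one was not computed. The heat map of CPM by class shows Itga6, Itgb4 and Col17a1 highest in IFE basal-like cells, the Col4a1 and Col4a2 pair highest in the cluster led by Lrrc15, Col11a1 and Adamts18 and next in DF-like cells, and low levels of most members in cortex-like and inner root sheath-like cells.

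**Figure D1:**
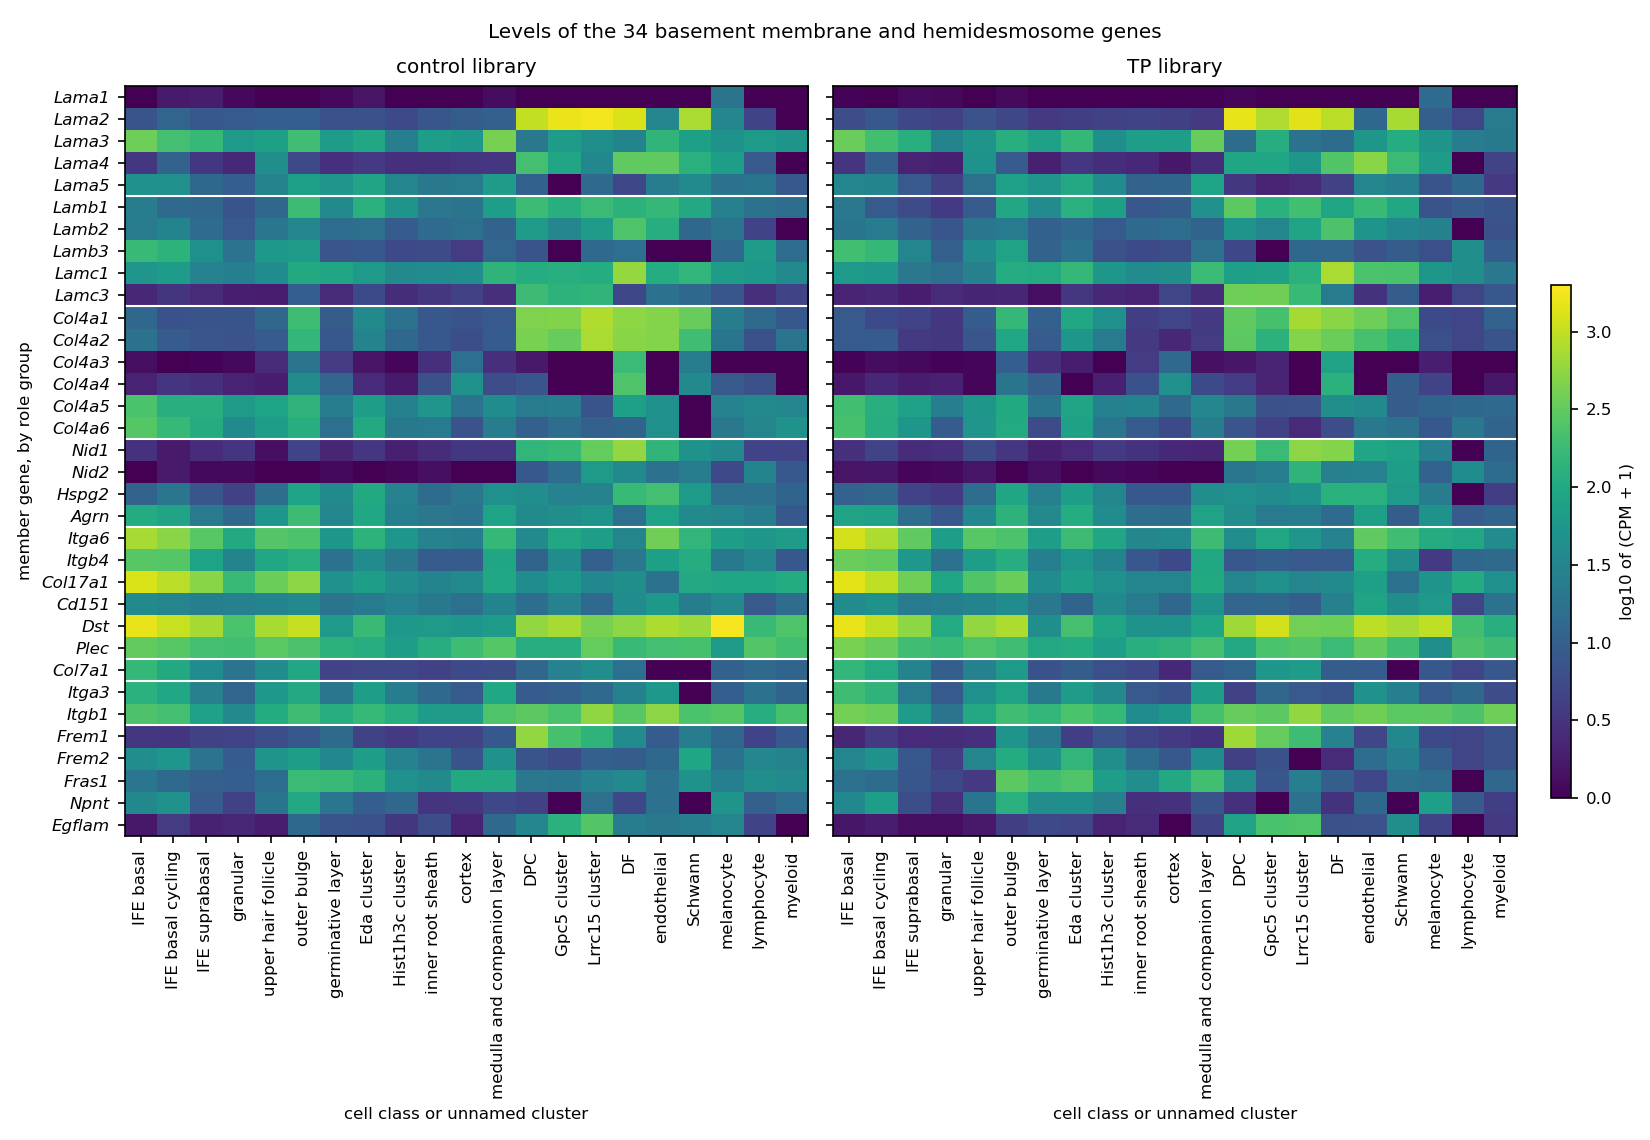
Level of each of the 34 members (rows) in the named classes and unnamed clusters (columns) of the control library and of the TP library, as log10 of CPM plus 1. The Itga6, Itgb4 and Col17a1 rows are brightest in IFE basal-like cells, and the Col4a1 and Col4a2 rows in the cluster led by Lrrc15.

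The 5 laminin alpha chain genes were each highest in another class or cluster in control. Their places were partly shared, as DF-like and DPC-like cells held both Lama2 and Lama4. Lama1 was highest in melanocyte-like cells, which held 54.5% of its 44 UMIs in control and 50% of its 30 UMIs in TP, at 17.5 (11.2 to 26.1) and 13.3 (7.45 to 21.9) CPM. Lama2, the alpha chain of muscle and mesenchyme laminins, was highest in control in the Lrrc15 cluster, at 1746 CPM, and next in a cluster led by Gpc5, at 1616 CPM. It stood at 1325 CPM in DF-like and 981 CPM in DPC-like control cells, against 6.21 CPM in IFE basal-like cells. Schwann-like cells also held Lama2, at 768 (589.9 to 982) CPM in control and 731 (585 to 901) CPM in TP. The alpha chain of laminin-332, Lama3, was an epithelial gene, and in control it was higher in the class of medulla and companion layer than in IFE basal-like cells, at 422 (400.0 to 444) and 373 (358 to 389) CPM. In TP these same classes gave Lama3 levels of 341 (318 to 365) and 355 (345 to 366) CPM, whose intervals overlap. Lama4, a chain of vessel and mesenchyme laminins, was measured at 307 (242 to 384) CPM in endothelial-like, 312 (263 to 366) in DF-like and 208 (199 to 216) in DPC-like control cells. Lama5, the alpha chain of epithelial laminin-511, was at most 82.4 (73.7 to 91.8) CPM in the 23 control classes and clusters, in a cluster led by Eda, Sox5 and Tmtc1, with outer bulge-like cells at 75.1 (61.4 to 90.9) CPM and overlapping that interval.

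Among the 5 beta and gamma chain genes, Lamb3 followed the epidermis and the others did not. Lamb3, the beta chain of laminin-332, was at 173 CPM in IFE basal-like control cells and 6.24 CPM in DPC-like ones. Lamb1, a beta chain shared by many laminins, was at 185 (177 to 193) CPM in DPC-like and 182 (161 to 206) CPM in outer bulge-like control cells, 2 levels that counting error does not separate. Lamb2, the beta chain of vessel and muscle laminins, and Lamc1, the common gamma chain, were highest in DF-like control cells, at 248 and 594 CPM. Lamc3, a gamma chain of restricted distribution, had 88.2% of its UMIs in DPC-like cells in control and 81.4% in TP. Its control CPM there, 184 (176 to 192), overlapped that of the Lrrc15 cluster, 143 (105 to 191), while the cluster led by Gpc5 was at 136 (91.2 to 196). In TP the Gpc5 cluster and DPC-like cells overlapped, at 383 (344 to 426) and 377 (364 to 391) CPM. Its CPM in DF-like control cells was 4.24 (0.513 to 15.3), from 2 UMIs.

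The 6 type IV collagen genes lie as 3 head-to-head pairs, Col4a1 with Col4a2 on chromosome 8, Col4a3 with Col4a4 on chromosome 1 and Col4a5 with Col4a6 on the X chromosome. Col4a1 and Col4a2, the chains of the common network, were highest in the cluster led by Lrrc15, Col11a1 and Adamts18, at 802 (707 to 906) and 758 (666 to 859.6) CPM in control. They were at 553 and 511 CPM in DF-like, 480.4 and 484 CPM in endothelial-like and 454 and 428 CPM in DPC-like control cells, and at 12.1 and 16.7 CPM in IFE basal-like ones. Col4a3 and Col4a4, best known from the kidney glomerulus, were also high in DF-like control cells, where both reached their highest level, 178 (142 to 220.5) and 242 (199 to 290.3) CPM. Outer bulge-like cells had 17.9 and 37.9 CPM of this pair and cortex-like cells 14.8 and 46.7 CPM. Col4a5 and Col4a6 were at 234 and 264 CPM in IFE basal-like control cells, but in DF-like cells Col4a5 was at 72.1 (49.9 to 101) CPM and Col4a6 at 10.6 (3.44 to 24.7) CPM.

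The start regions are shown because the genes of a pair are read in opposite directions from neighbouring starts, with RefSeq sequence of the GRCm38.p6 build printed from 5′ to 3′ on the strand named. In the RefSeq promoter table the starts of Col4a1 (minus strand) and Col4a2 (plus strand) lie 21 bases apart, and the 30 bases around them, chr8:11312801-11312830 on the plus strand, hold a GC box. By the outer ends of the RefSeq gene spans the starts lie 84 bases apart and the genes overlap, so that 26 of the 30 bases are inside both. The starts of Col4a5 (plus strand) and Col4a6 (minus strand) lie 1343 bases apart in the promoter table and 1275 by the gene spans, so each has a stretch of its own, chrX:141475169-141475369 on the plus strand for Col4a5 and chrX:141474096-141474326 on the minus strand for Col4a6. The region before the start of Nid1, the member with the largest whole-library difference carried by over 1000 UMIs per library, is chr13:13437352-13437601 on the plus strand. Capitals mark a CCAAT box (CCAAT, or ATTGG on the other strand) or a GC box (GGGCGG, or CCGCCC on the other strand), letters searched on both strands, which do not overlap each other.
Col4a1 and Col4a2 starts: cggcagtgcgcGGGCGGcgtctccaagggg
Col4a5 upstream: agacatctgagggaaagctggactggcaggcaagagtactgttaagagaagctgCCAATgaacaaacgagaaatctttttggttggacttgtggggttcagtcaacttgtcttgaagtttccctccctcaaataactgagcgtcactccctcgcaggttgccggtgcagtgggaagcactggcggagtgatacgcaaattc
Col4a6 upstream: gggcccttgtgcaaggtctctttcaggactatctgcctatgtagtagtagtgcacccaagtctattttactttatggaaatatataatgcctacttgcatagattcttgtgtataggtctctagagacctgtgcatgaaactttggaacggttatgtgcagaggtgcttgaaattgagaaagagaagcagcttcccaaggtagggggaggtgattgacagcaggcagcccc
Nid1 upstream: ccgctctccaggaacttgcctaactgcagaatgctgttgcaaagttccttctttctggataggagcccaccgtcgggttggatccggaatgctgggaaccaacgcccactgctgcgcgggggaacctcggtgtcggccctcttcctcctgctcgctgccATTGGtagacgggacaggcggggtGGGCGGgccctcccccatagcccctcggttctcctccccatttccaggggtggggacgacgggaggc

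The 30 bases around the Col4a1 and Col4a2 starts had a GC box, as had 5.77% of 32851 RefSeq windows of the same length and place. Before Nid1 there was 1 CCAAT box and 1 GC box, against 33.8% and 32.7% of windows with at least 1. The Col4a5 stretch had 1 CCAAT box (28.6% of windows), and the Col4a6 stretch had neither box (32.3% and 29.97% of windows). A match describes letters and not a bound site.

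Nidogens, perlecan and agrin included dermal and epithelial genes. Nid1, which links laminin to type IV collagen, was at 587 (520.1 to 661) CPM in DF-like and 148 (141 to 155) CPM in DPC-like control cells, and at 1.96 CPM in IFE basal-like ones. Nid2, its relative, gave 171 control and 495 TP UMIs in all and was highest in the Lrrc15 cluster, at 59.04 (35.5 to 92.2) CPM in control. Hspg2 (perlecan) was at 206 (153 to 271) CPM in endothelial-like and 169.6 (134 to 211) CPM in DF-like control cells, which overlap. Agrn (agrin) was an epithelial gene at 182 (160.0 to 205) CPM in outer bulge-like control cells, above the 105 (97.1 to 114) CPM of IFE basal-like ones.

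Hemidesmosome genes were highest in IFE basal-like cells for 3 of 6 members in control, the integrin chains Itga6 and Itgb4 and Col17a1 (collagen XVII). Dst (dystonin) exists in epithelial, neuronal and muscle isoforms, which the counts per gene used here do not separate. It was higher in melanocyte-like control cells than in IFE basal-like ones, at 1812 (1742 to 1885) and 1556 (1524 to 1587) CPM. The order was turned in TP, at 973 (916 to 1032) and 1564 (1543 to 1587) CPM. Plec (plectin) was spread more evenly, at 64.2 CPM in melanocyte-like cells, 329 CPM in the Lrrc15 cluster and 321 CPM in IFE basal-like cells of the control library. Cd151, a tetraspanin bound to laminin-binding integrins, was at 14.5 CPM in DPC-like, 37.3 CPM in IFE basal-like and 56.5 CPM in endothelial-like control cells. Col7a1, the anchoring fibril collagen, was at 156 CPM in IFE basal-like control cells and at 14.8 CPM in DF-like ones. Of the other integrin chains, Itga3, which pairs with Itgb1, was at 127 CPM in IFE basal-like and 8.13 CPM in DPC-like control cells, and Itgb1, the common beta chain, reached 525 CPM in endothelial-like and 238 CPM in IFE basal-like ones.

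Frem1, a secreted member of the Fraser complex, was highest in DPC-like cells, which held 91.5% of its UMIs in control and 81.1% in TP, at 575 and 683 CPM. Fras1 and Frem2 are its membrane-bound partners. Fras1 was at 176 (155 to 199) CPM in outer bulge-like and 171 (164 to 179) CPM in germinative layer-like control cells, which overlap. Frem2 was at 70.2 (62.2 to 78.99) CPM in the Eda cluster, 68.6 (55.6 to 83.8) in outer bulge-like and 33.7 in germinative layer-like control cells, and its highest control level, 85.3 (34.3 to 176) CPM in Schwann-like cells, rested on 7 UMIs and overlapped the first 2. Npnt (nephronectin), an integrin ligand of the bulge basement membrane, was highest in outer bulge-like cells, at 96.5 (80.9 to 114) CPM in control and 122 (115 to 129.9) CPM in TP. Egflam (pikachurin), a dystroglycan ligand, was at 258 (205 to 319.7) CPM in the Lrrc15 cluster and 32.7 (29.5 to 36.1) CPM in DPC-like control cells.

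Over whole libraries, Nid1 and Nid2 were the 2 members past 2-fold, both higher in TP, and none was past 2-fold lower. Nid1 was at 22.4 (21.5 to 23.3) CPM in control and 50.03 (48.8 to 51.2) CPM in TP, with a TP/control ratio of 2.23 (2.13 to 2.34). Nid2 was at 1.59 (1.36 to 1.85) and 3.70 (3.38 to 4.04) CPM, a ratio of 2.32 (1.95 to 2.78). Of all 17574 genes tested, 8.27% were higher by this rule and 10.7% lower, so that neither 2 of 34 higher nor 0 of 34 lower exceeds the background share. The median log2 ratio was 0.19 over the 34 members and -0.24 over all genes tested. A whole-library level cannot tell more cells of a class from more RNA of the gene per cell.

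All 6 hemidesmosome genes were higher in the TP library with intervals above 1, as were 27.8% of all genes tested, and none was past 2-fold. Itga6 came closest, at 134 (132 to 136) CPM in control and 264 (261 to 267) CPM in TP, with a TP/control ratio of 1.98 (1.94 to 2.01). The ratio was 1.54 for Itgb4, 1.49 for Col17a1, 1.30 for Dst, 1.23 for Plec and 1.22 for Cd151. Intervals also lay above 1 for Npnt (1.81), Lamb3 (1.64), Col4a3 (1.61), Col7a1 (1.48), Itga3 (1.35), Lamc3 (1.28), Lamc1 (1.23), Itgb1 (1.20), Lamb2 (1.16) and Lama2 (1.13).
They lay below 1 for 10 of 34 members, against 56.1% of all genes tested. Among the 10 were Lama1 at 0.547 (0.332 to 0.891), Lama5 at 0.689 (0.654 to 0.725), Frem1 at 0.773 (0.748 to 0.799), Col4a2 at 0.780 (0.754 to 0.807) and Lama4 at 0.813 (0.774 to 0.854). Ratios of the remaining members were 0.864 for Hspg2, 0.878 for Lamb1, 0.880 for Fras1, 0.899 for Frem2, 0.963 for Col4a6, 0.972 for Agrn, 0.973 for Col4a1, 0.984 for Col4a5, 1.01 for Lama3, 1.04 for Egflam and 1.10 for Col4a4. With the TMM factor, 0.837 for TP over control, 8 members turned direction (Lamb1, Col4a1, Col4a5, Col4a6, Hspg2, Agrn, Frem2 and Fras1), and 3 intervals stayed below 1. The shares of all genes were not computed with this factor.

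**Figure D2:**
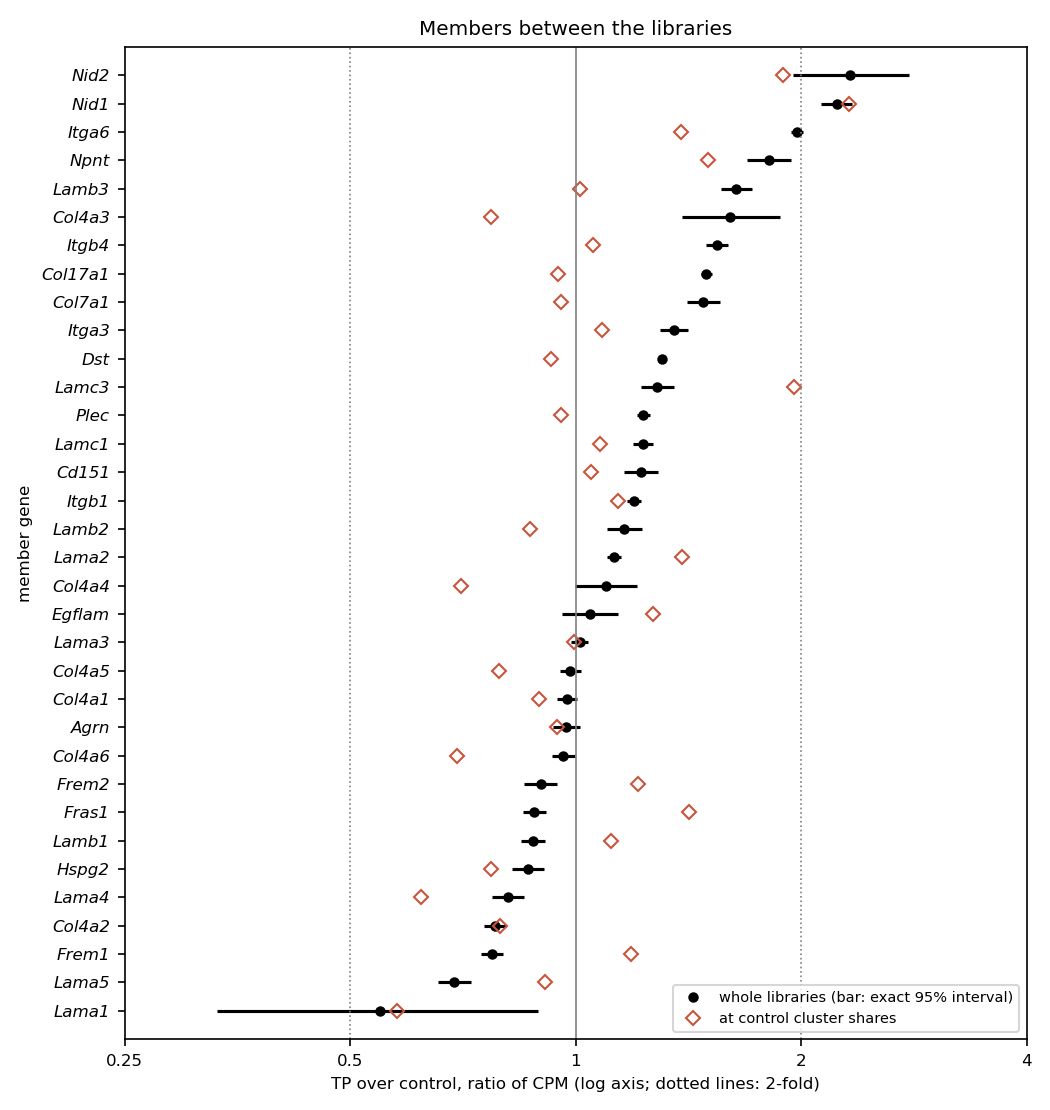
Ratio of TP over control CPM (log axis) for the 34 members, over all cells (points, bars for the 95% counting interval) and with each cluster held at its share of the control library (diamonds). Nid1 and Nid2 lie past the dotted 2-fold line over all cells, Nid1 alone at control shares, where Itga6, Itgb4 and Col17a1 lie closer to 1.

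Class shares differed between the libraries, and the members' whole-library ratios were therefore recomputed with each cluster held at its share of control UMIs. By this measure 1 of 34 members, Nid1, was past 2-fold higher, against 3% of all genes tested, and 0 were lower, against 3.41%. The ratio of Nid1 was 2.32, that of Lamc3 1.96 and that of Nid2 1.89. With clusters held at their TP shares instead, the 1 member past 2-fold was Lamc3, with a ratio of 2.05, against 2.7% of genes higher, and 0 were lower, against 3.53%. Nid1 then had a ratio of 1.41 and Nid2 one of 1.41. At control shares the ratio was 1.38 for Itga6, 1.05 for Itgb4 and 0.947 for Col17a1, whereas Lama4 was at 0.621 and Col4a6 at 0.694. Where the UMIs came from also moved between libraries: DPC-like cells held 76.3% of Lama4 UMIs in control and 22.6% in TP, while DF-like cells held 4.62% and 38.1%. For Col4a1 the share in DPC-like cells was 70.9% and 28.97%, and for Col17a1 the share in IFE basal-like cells was 36.2% and 44.9%.

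Within 17 classes with at least 50 cells per library, 54 combinations of member and class were past 2-fold, 10 of 355 tested higher and 44 lower in TP. Lower calls outnumbered higher ones over all genes too, at 5.92% against 2.76% of the gene and class combinations tested. With TMM factors computed within each class the split was 12 higher and 24 lower, and the split over all genes was not computed with them. The heat map of ratios within classes shows where they lie, with 11 of the lower ones in granular-like, 6 in inner root sheath-like and 5 in IFE suprabasal-like cells, and 5 of the 10 higher ones in DPC-like cells. Markers of other classes also moved inside each class. Outside inner root sheath-like cells, the 5 inner root sheath markers were lower in TP in 22 of 22 classes and unnamed clusters, with medians of 2482 CPM in control and 426 CPM in TP, and outside DPC-like cells the 5 DPC markers were lower in 22 of 22, at medians of 66.3 and 20.6 CPM. The 5 suprabasal markers were higher in TP in 21 of 22 outside their own class, at medians of 2527 and 4225 CPM. Their part in the members' differences was not tested.

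**Figure D3:**
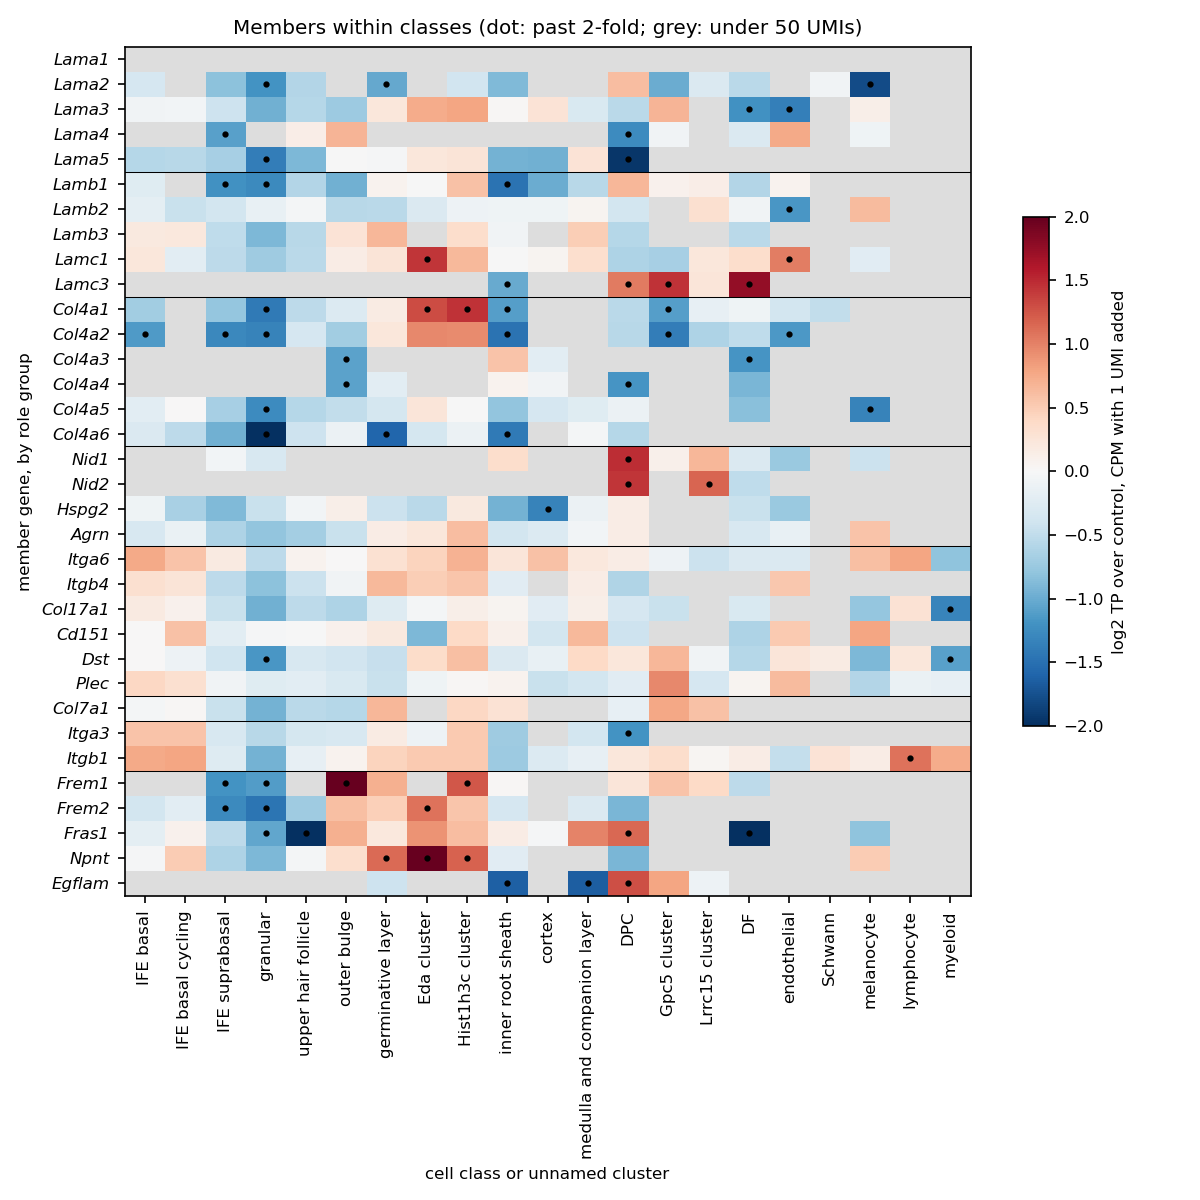
Log2 of TP over control CPM for each of the 34 members (rows) within each class or unnamed cluster (columns), with grey where both libraries together held under 50 UMIs and a dot where the 2-fold rule was passed. The granular column has 11 dots, all lower in TP, and the DPC column has 5 higher and 4 lower.

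In the basal layer of the epidermis, 4 of 6 hemidesmosome genes and both other integrin chains were higher in TP with intervals above 1, short of 2-fold, against 12.5% of all genes tested in these cells with an interval above 1. The 4 IFE basal markers used for naming summed to 11379.9 CPM in control and 18584 CPM in TP, and the 5 inner root sheath markers to 1990.0 and 429 CPM, and their part in these differences was not tested. In IFE basal-like cells Itga6 was at 727 (706 to 748) CPM in control and 1228 (1209 to 1248) CPM in TP, with a TP/control ratio of 1.69 (1.63 to 1.75). Itgb1 was at 238 (226 to 250.2) and 404 (393 to 415) CPM, a ratio of 1.70 (1.60 to 1.80), and Itga3 at 127 and 189 CPM, a ratio of 1.49 (1.37 to 1.62). These 3 integrin chains thus had separate levels in the libraries, each under 2-fold. Smaller differences were measured for the genes they work with, Itgb4 at 279 and 350.4 CPM, Plec at 321 and 426 CPM and Col17a1 at 1304 and 1477 CPM, all with intervals of the ratio above 1. Dst differed by a ratio of 1.01 (0.981 to 1.03), Cd151 by 1.01 (0.858 to 1.19) and Col7a1 by 0.973 (0.900 to 1.05), intervals that hold 1. With the TMM factor the ratio of Dst was 1.16 (1.13 to 1.19), above 1, and that of Cd151 1.16 (0.992 to 1.37).

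Of the laminin-332 genes of the basal layer, Lama3 was at 373 and 355 CPM, a ratio whose interval holds 1, and Lamb3 was higher in TP, at 173 and 197 CPM. The type IV collagen genes Col4a5 and Col4a6 were lower in TP, Col4a5 at 234 and 202 CPM and Col4a6 at 264 and 216 CPM. With the TMM factor their ratios were 0.999 (0.935 to 1.07) and 0.945 (0.888 to 1.01), intervals that hold 1. Past 2-fold in IFE basal-like cells were 0 of 25 members tested higher (1.45% of all genes tested) and 1 lower (4.72%), Col4a2 at 16.7 (13.6 to 20.2) and 7.62 (6.17 to 9.32) CPM. With the TMM factor its log2 ratio was -0.92, no longer past 2-fold. Lama3 and Col7a1 turned direction with the TMM factor of 0.865, as did Lamb2, Hspg2, Fras1 and Npnt. Cycling IFE basal-like cells gave 0 of 21 members past 2-fold either way, against 0.985% of genes higher and 1.39% lower, with Itga6 at 520.0 and 774 CPM and Itgb1 at 202 and 349.8 CPM.

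Counted by cells, each thinned to 1000 UMIs because deeper cells show a transcript more often, 48.2% of control and 64.6% of TP IFE basal-like cells had an Itga6 UMI, and 71.2% and 90.8% before thinning. The shares for Itgb1 were 20.4% and 28.96%, and before thinning 38.9% and 63.8%. For Col17a1 they were 71.6% and 75.6%, and before thinning 88.1% and 95.7%. In inner root sheath-like cells, an inner follicle layer that does not touch the basement membrane, 2.71% and 1.97% of thinned cells had an Itga6 UMI. Median depths were 2024 and 3415 UMIs in IFE basal-like and 1858 and 4439 UMIs in inner root sheath-like cells.

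Above the basal layer the levels of these genes were lower in both libraries, and the step was larger in TP. Itga6 went from 727 CPM in basal to 276 in suprabasal and 99.4 in granular-like control cells, and from 1228 to 312 and 69.5 CPM in TP. Col17a1 was at 1304, 522 and 167 CPM over the same 3 layers of the control library and at 1477, 383 and 86.3 CPM in TP. The panels of the epidermal layers show TP above control in the basal layer and below it in the granular layer for Itga6, Itgb1, Itga3, Itgb4 and Col17a1. With the TMM factor of 0.776 in granular-like cells, Itga3 had a ratio of 0.891 (0.666 to 1.21), which holds 1. Itga6 was then at 0.901 (0.820 to 0.992), and Itgb1, Itgb4 and Col17a1 also kept intervals below 1. Plec and Cd151, which have no panel, turned direction with this factor, to 1.09 (1.02 to 1.16) and 1.28 (1.07 to 1.54). Summed CPM of the 5 suprabasal markers in granular-like cells was 44099 in control and 60157 in TP, a larger part of the total in TP, and that of the 4 IFE basal markers was 1566 and 1061 there and 3914 and 3217 in IFE suprabasal-like cells. Their part in these differences was not tested.

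**Figure D4:**
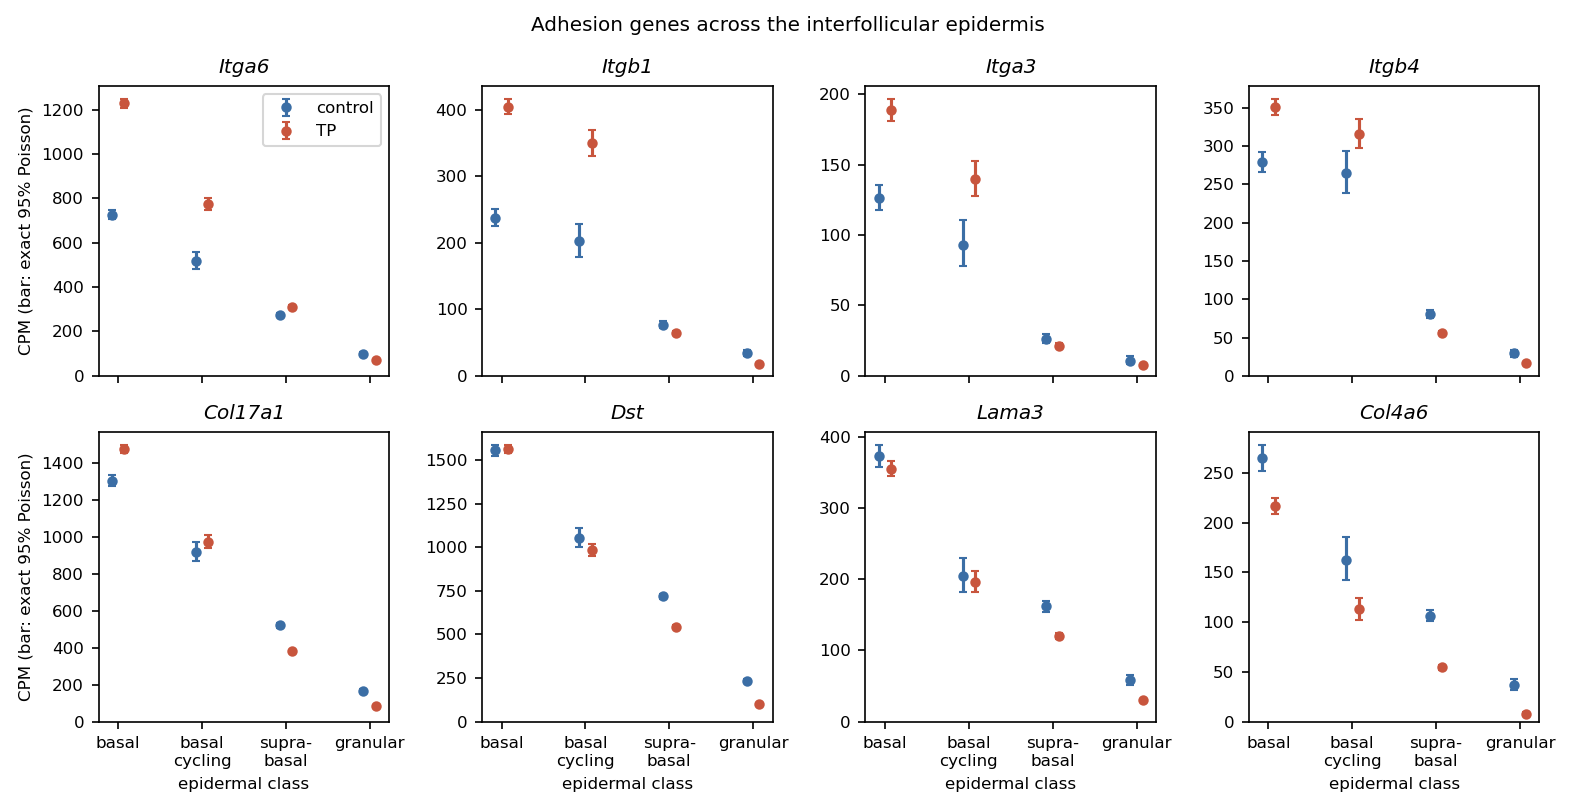
CPM of 8 members in basal-, cycling basal-, suprabasal- and granular-like epidermal cells of the control and TP libraries, with bars for the exact 95% Poisson interval (counting error only) and an axis from 0 for each gene. Itga6 and Itgb1 are higher in TP in the basal layers and lower in the granular layer.

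In granular-like cells 11 of 27 members tested were past 2-fold lower, against 10% of all genes tested, and 0 were higher, against 1.64%. The members were Lama2, Lama5, Lamb1, Col4a1, Col4a2, Col4a5, Col4a6, Dst, Frem1, Frem2 and Fras1, with a median log2 ratio of -0.95 over the members tested and -0.27 over all genes. The 11 became 4 with the TMM factor (Lama5, Col4a1, Col4a6 and Frem2), 3 at a minimum of 200 UMIs (Col4a5, Col4a6 and Dst) and, with thinned cells, 1 of 8 members tested, Itgb1, which is not among the 11. Of the 3 that reached 10 CPM, Col4a6 was at 37.1 (32.3 to 42.4) CPM in control and 8.07 (7.01 to 9.24) CPM in TP, Dst at 232 and 103 CPM and Col4a5 at 58.3 and 24.5 CPM. The remaining 8 were each below 10 CPM in both libraries. The 5 DPC markers summed to 64.4 and 16.7 CPM in granular-like and 68.1 and 22.8 CPM in IFE suprabasal-like cells, and their part in these results was not tested. IFE suprabasal-like cells had 5 of 28 members past 2-fold lower (Lama4, Lamb1, Col4a2, Frem1 and Frem2), against 7.94% of genes, and 0 higher, against 1.38%. The highest of these 5 in control was Frem2, at 16.8 CPM and 6.96 CPM in TP. The 5 became 2 with the TMM factor (Col4a2 and Frem2) and 2 with thinned cells (Lamb1 and Fras1). The class held 2 subclusters, led by Gm47071 (1248 control and 955 TP cells) and Krt1 (1632 and 2237), whose part in the result was not tested. Not past 2-fold in IFE suprabasal-like cells were Dst, at 718 and 545 CPM, and Col4a6, at 106 and 54.5 CPM.

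In the follicle epithelium the outer bulge-like cells, where stem cells reside, had 1 member past 2-fold higher in TP and 2 lower. Intervals lay above 1 for 4 of 28 members and below 1 for 14, against 13.9% and 21.4% of all genes tested in these cells. With the TMM factor they lay above 1 for 9 members and below 1 for 10, and the shares of all genes were not computed with it. Frem1 was at 7.15 (3.43 to 13.2) CPM in control, from 10 UMIs, and 50.6 (46.03 to 55.6) CPM in TP, from 440 UMIs, a ratio of 7.08 (3.82 to 14.9). The log2 ratio was 2.69, and 1.82 without doublet removal. By thinned cells, 0.411% of control and 3.85% of TP cells had a Frem1 UMI. The 5 DPC markers, from the class with the highest Frem1, summed to 70.1 and 32.2 CPM in these cells. The Frem1 shares were 1.02% and 10.5% before thinning, and 0.387% and 0.375% in thinned inner root sheath-like cells. Lower past 2-fold were Col4a3, at 17.9 (11.6 to 26.4) and 8.75 (6.89 to 10.9) CPM, and Col4a4, at 37.9 (28.4 to 49.6) and 18.2 (15.5 to 21.3) CPM. This was 1 of 28 members higher, against 3.11% of genes, and 2 lower, against 4.53%. Both lower calls ended with the TMM factor, at log2 ratios of -0.90 and -0.90. Col4a3 was at -0.95 without doublet removal, and Col4a4 at -0.60 with thinned cells.
The other Fraser genes and Npnt were higher short of 2-fold, Fras1 at 176 and 290.0 CPM, Frem2 at 68.6 and 105 CPM and Npnt at 96.5 and 122 CPM. Lower short of 2-fold were Col17a1, at 543 and 356 CPM, Lama3, at 194 and 118 CPM, Lamb1, at 182 and 93.9 CPM, and Agrn, at 182 and 134 CPM.

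Fras1 was the 1 of 26 members past 2-fold lower in upper hair follicle-like cells, at 14.5 (10.2 to 19.8) CPM in control and 2.57 (1.55 to 4.01) CPM in TP. The background there was 3.03% of genes lower and 1.43% higher, with 0 members higher. The 4 germinative layer markers summed to 177 and 30.3 CPM in these cells and the 5 inner root sheath markers to 1854 and 361 CPM, and their part in the result was not tested. At clustering resolution 2 and with thinned cells Fras1 was below the minimum of UMIs, and at resolution 2 Lama5, Col4a6 and Agrn were past 2-fold lower instead. In germinative layer-like cells Npnt was higher, at 18.98 (16.5 to 21.7) and 41.4 (34.6 to 49.1) CPM, 1 of 28 members against 1.65% of genes. Lower in these cells were 2 members, against 2.79%, Lama2 at 5.71 and 2.53 CPM and Col4a6 at 15.02 and 4.74 CPM. The Col4a6 direction was turned when cells were thinned, and Lama2 had a log2 ratio of -0.95 with the TMM factor. That of Npnt was 0.70 at clustering resolution 2 and 0.91 with thinned cells.

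Npnt was also higher past 2-fold in 4 unnamed clusters. In the cluster led by Eda, Sox5 and Tmtc1 (1969 control and 381 TP cells), 4 of 22 members were past 2-fold higher, against 1.65% of genes, and 0 lower, against 2.12%. They were Npnt at 8.62 (5.97 to 12.04) and 42.9 (32.4 to 55.8) CPM, Lamc1 at 58.8 (51.5 to 66.9) and 159 (138 to 182), Col4a1 at 37.3 (31.5 to 43.8) and 92 (76.3 to 110.0), and Frem2 at 70.2 (62.2 to 78.99) and 149 (129 to 171). The cluster led by histone genes (1878 and 1011 cells) had 3 of 26 members higher, against 1.66%, and 0 lower, against 1.53%. Its members past 2-fold were Col4a1, at 16.4 and 44.9 CPM, Npnt, at 11.6 and 26.3 CPM, and Frem1, at 2.503 and 6.05 CPM.

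Inner root sheath-like cells had low levels of the members, and 6 of 31 were past 2-fold lower, against 7.41% of genes, and 0 higher, against 4.7%. Col4a6 was the highest of the 6 in control, at 22.2 CPM and 8.23 CPM in TP, and Lamb1 was at 19.2 and 6.82 CPM. The other 4, Lamc3, Col4a1, Col4a2 and Egflam, were below 10 CPM in both libraries. The 5 DPC markers summed to 55.3 and 14.4 CPM in these cells and the 5 suprabasal markers to 2266 and 12833 CPM. The libraries also filled the class differently, with 326 of 7615 control and 214 of 1112 TP cells in a subcluster led by Prr9 and 3732 and 332 in one led by Krt71, and the part of both in the result was not tested. With the TMM factor the calls of Lamc3 and Col4a1 ended, at log2 ratios of -0.80 and -0.91. Without doublet removal 3 members were past 2-fold lower (Lama5, Lamb1 and Egflam). The log2 ratio was then -0.87 for Col4a6, -0.33 for Col4a1 and -0.83 for Col4a2. With thinned cells that of Lamb1 was -0.78, while Col4a1, Col4a2 and Col4a6 stayed past 2-fold.

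Dermal papilla-like cells held differences in both directions. Of 32 members tested, 5 were past 2-fold higher, against 3.65% of all genes tested, and 4 lower, against 7.28%, with a median log2 ratio of -0.28 over the members and -0.10 over all genes. No member turned direction in these cells with the TMM factor of 0.931. The 5 DPC markers fixed for naming summed to 8863 CPM in control and 6711 CPM in TP, all 5 detected in both.

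Higher were both nidogens, 1 laminin chain, Fras1 of the Fraser complex and Egflam. Nid1 was at 148 (141 to 155) CPM in control (1728 UMIs) and 412 (398 to 426) CPM in TP (3463 UMIs), a ratio of 2.79 (2.63 to 2.95). Nid2 was at 7.01 (5.58 to 8.71) and 19.04 (16.2 to 22.2) CPM, a ratio of 2.71 (2.07 to 3.59). The nidogens thus had ratios whose intervals overlap. Lamc3 was at 184 (176 to 192) and 377 (364 to 391) CPM, a ratio of 2.06 (1.95 to 2.17). Egflam was at 32.7 (29.5 to 36.1) and 79.7 (73.8 to 85.99) CPM, and Fras1 at 19.2 (16.7 to 21.8) and 42.4 (38.1 to 47) CPM. The log2 ratio of Fras1, 1.14, was 0.53 without doublet removal and 0.97 with thinned cells, and that of Lamc3 was 0.93 with thinned cells, so these calls ended. Egflam and Fras1 both stayed below the level of their highest class in the same library. Short of 2-fold and above 1 were Lama2, at 981 and 1502 CPM, Lamb1, at 185 and 293 CPM, and Frem1, at 575 and 683 CPM.

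Lower were Lama4, at 208 (199 to 216) CPM in control and 86.7 (80.6 to 93.3) CPM in TP, with a TP/control ratio of 0.418 (0.384 to 0.454), and 3 members of low level. These were Lama5 at 9.58 and 2.38 CPM, Col4a4 at 6.42 and 2.74 CPM and Itga3 at 8.13 and 3.45 CPM, the last at a log2 ratio of -0.82 without doublet removal. The laminin alpha chains of the papilla thus had ratios on opposite sides of 1, 1.53 (1.49 to 1.57) for Lama2 and below 1 for Lama4, while Lamc1, the gamma chain that pairs with both, had a ratio of 0.654 (0.593 to 0.721). Col4a1 and Col4a2 were lower short of 2-fold, at 454 and 313 CPM and at 428 and 290.3 CPM. Summed CPM of the 5 inner root sheath markers in the same cells was 1886 in control and 349 in TP, and that of the 4 IFE basal markers was 602 and 422. All were detected in both libraries, and their part in these results was not tested.

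By thinned cells, a Nid1 UMI was found in 10.6% of control and 28.6% of TP DPC-like cells, and in 26.1% and 66.9% before thinning. For Lamc3 the shares were 15.5% and 26.7%, and before thinning 32.4% and 67.2%. Thinned inner root sheath-like cells gave 0.172% and 0.0937% for Nid1 and 0.286% and 0.0937% for Lamc3. Median depth of DPC-like cells was 2439 and 5171.5 UMIs.

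DPC-like cells formed 3 subclusters whose shares differed between libraries, led by Ndnf (2332 control and 451 TP cells), Adgrb3 (1470 and 866) and Edn3 (207 and 23). Nid1 was higher in TP by more than its counting error in the first 2, at 132 (123 to 142) and 431 (406 to 458) CPM and at 148 (138 to 159) and 405 (389 to 422) CPM, and in the Edn3 subcluster the intervals overlap, at 283 (244 to 327) and 342 (250.2 to 456) CPM. Lamc3 had ratios of 1.90 (1.75 to 2.07), 2.46 (2.27 to 2.67) and 1.36 (0.914 to 1.99). Of the 5 members past 2-fold higher in DPC-like cells, Lamc3, Fras1 and Egflam were short of it in the Ndnf subcluster and Nid1 was past it, while Nid2, with 20 and 19 UMIs there, was below the minimum. Lama4 had ratios of 0.559 (0.495 to 0.630) and 0.368 (0.326 to 0.416) in the Ndnf and Adgrb3 subclusters. Col4a1 differed between these subclusters, with a ratio of 1.07 (0.994 to 1.15) in the Ndnf and 0.532 (0.499 to 0.568) in the Adgrb3 subcluster, and so did Fras1, with 1.23 (0.899 to 1.67) and 3.10 (2.43 to 3.998). The intervals of each pair do not overlap, and with 1 library per condition this difference was not tested.

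**Figure D5:**
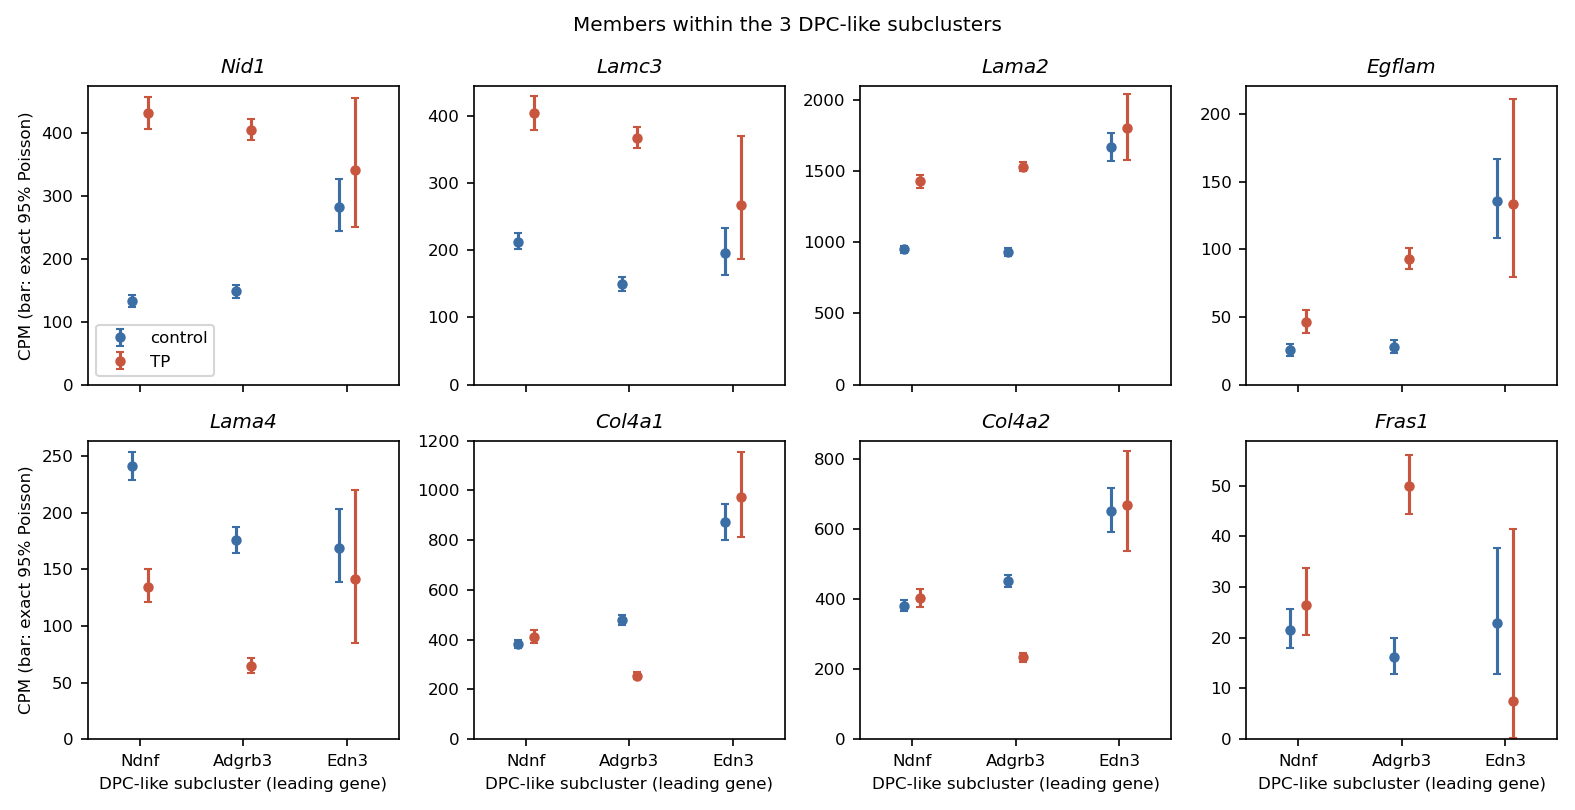
CPM of 8 members in the 3 subclusters of DPC-like cells, led by Ndnf, Adgrb3 and Edn3, in the control and TP libraries, with bars for the exact 95% Poisson interval (counting error only). Nid1 and Lamc3 are higher in TP in the Ndnf and Adgrb3 subclusters, and Col4a1 and Col4a2 are lower in TP in the Adgrb3 subcluster.

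The 6 DF markers summed to 47078 CPM in control and 69638 CPM in TP in DF-like cells, all detected. These cells had lower Col4a3 and Col4a4 in TP and, of 25 members tested, 1 past 2-fold higher, against 2.84% of genes, and 3 lower, against 9.52%. Col4a3 was at 178 (142 to 220.5) CPM in control and 79.03 (71.3 to 87.4) CPM in TP, with a TP/control ratio of 0.444 (0.350 to 0.569), and Col4a4 at 242 (199 to 290.3) and 129 (119 to 139) CPM, a ratio of 0.532 (0.435 to 0.655), just short of 2-fold. The other lower members were Lama3, at 29.7 and 13.5 CPM, and Fras1, at 36.04 and 8.94 CPM. With the TMM factor Col4a3 was at a log2 ratio of -0.81 and Lama3 at -0.84, and without doublet removal Lama3 was at -0.75. Lamc3 was the higher one, from 2 UMIs in control against 102 in TP, with a ratio of 5.004 (1.35 to 41.9). The mesenchymal laminin genes differed less, Lama2 at 1325 and 918 CPM, Lamc1 at 594 and 759 CPM and Lama4 at 312 and 255 CPM. Nid1 had a ratio of 0.823 (0.726 to 0.935). Lama4, Lamb2, Col4a1, Nid1, Agrn, Itga6 and Col17a1 turned direction with the TMM factor of 0.773. Summed CPM of the inner root sheath markers in these cells was 1588 in control and 305 in TP, and its part in the result was not tested.

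The 3 DF-like subclusters had other shares in each library, 50 and 293 cells led by C3, 71 and 136 led by Nova1 and 16 and 164 led by Cpz. Col4a3 was at 208 (145 to 289.8) and 118 (87.6 to 155) CPM in the Nova1 subcluster and at 182 (132 to 245) and 97.9 (86.3 to 110.5) CPM in the C3 subcluster. Within neither was it past 2-fold.

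In endothelial-like cells (87 and 136 cells, in 2 subclusters, one led by Ccl21a, a lymphatic gene, and one by Mecom), 1 of 16 members was past 2-fold higher, against 5.73% of genes, and 3 lower, against 4.56%. Lamc1 was higher, at 109 (71.8 to 159) and 228 (188 to 274) CPM, and its alpha partner Lama4 was at 307 (242 to 384) and 523 (461 to 591) CPM. Col4a2 was lower, at 484 (402 to 579) and 218 (179 to 263) CPM, whereas Col4a1 was at 480.4 (398 to 575) and 372 (319.8 to 429) CPM. Lama3 and Lamb2 were also lower, at 141 and 54.5 CPM and at 113 and 50.5 CPM. Without doublet removal the calls of Lamc1, Col4a2 and Lama3 ended, at log2 ratios of 0.86, -0.33 and -0.62, and with thinned cells 0 of 5 members tested were past 2-fold. At clustering resolution 2 the class fell below 50 cells in control and gave no value. The inner root sheath markers summed to 2733 CPM in control and 481 CPM in TP in these cells, the DPC markers to 303 and 28.3 CPM and the suprabasal markers to 1885 and 5742 CPM, and their part in the result was not tested.

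Melanocyte-like cells had 0 of 16 members past 2-fold higher, against 5.21% of genes, and 2 lower, against 11.3%, Lama2 at 32.8 and 8.87 CPM and Col4a5 at 28.5 and 10.6 CPM. Dst was at 1812 and 973 CPM there, a ratio of 0.537 (0.500 to 0.577). The 5 DPC markers summed to 141 and 10.6 CPM in these cells and the 5 inner root sheath markers to 3229 and 313 CPM, and their part in the result was not tested. Of the unnamed clusters, the one led by Gpc5 (118 and 324 cells) had 1 of 17 members higher, against 7.01%, Lamc3 at 136 (91.2 to 196) and 383 (344 to 426) CPM. Lower in it were 2, against 6.89%, Col4a1 at 465 and 217 CPM and Col4a2 at 343 and 132 CPM. With the TMM factor the ratio of Col4a1 was 0.552 (0.431 to 0.710), short of 2-fold, and that of Col4a2 was 0.455 (0.337 to 0.618). Thinning, doublet and resolution alternatives were not computed for unnamed clusters. The Lrrc15 cluster (98 and 110 cells) had 1 of 16 higher, against 4.23%, Nid2 at 59.04 (35.5 to 92.2) and 138 (111 to 168) CPM, and 0 lower, against 3.88%. In this cluster the 6 DF markers summed to 5599.8 and 12338 CPM, the DPC markers to 1442 and 472 and the inner root sheath markers to 1815 and 324, and their part in the result was not tested. In the cluster led by Hbb-bs and Hba-a1 (4624 and 305 cells, with medians of 775.5 and 667 UMIs), 5 of 24 members were higher, against 5.27%, and 0 lower, against 6.25%. They were Dst at 148 (137 to 159.7) and 373 (306 to 451) CPM, Col17a1 at 86.8 (78.3 to 96.1) and 216 (166 to 277), Col4a5 at 30.9 and 59.3, Npnt at 10.2 and 27.9 and Lamb3, whose interval holds 1, at 10.4 and 24.4. The 4 IFE basal markers summed to 1517 and 3305 CPM in this cluster, and their part in the result was not tested. The cluster led by Knl1 (2615 and 239 cells) had 1 of 22 members higher, against 1.56%, Npnt at 6.51 and 13.3 CPM, and 1 lower, against 3.32%, Hspg2 at 26.4 and 6.64 CPM.

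The remaining 5 classes had 2 or fewer members past 2-fold. Cortex-like cells had Hspg2 lower, at 19.4 and 7.16 CPM, 1 of 17 members against 2.97% of genes, and 0 higher, against 2.22%. The class of medulla and companion layer had Egflam lower, at 12.7 and 3.75 CPM, 1 of 21 against 2.76%, and 0 higher, against 2.48%. Lymphocyte-like cells had Itgb1 higher, at 112 (85.6 to 144) and 236 (180.4 to 304) CPM, 1 of 5 against 4.48%, and 0 lower, against 6.94%, with a log2 ratio of 0.82 for Itgb1 without doublet removal. Myeloid-like cells had 2 of 5 lower, against 8.38%, and 0 higher, against 5.75%. These were the hemidesmosome genes Col17a1, at 107 and 44.02 CPM, and Dst, at 243 and 116 CPM, in cells where the 4 IFE basal markers summed to 1009 and 640.5 CPM, whose part in the result was not tested. Both were short of 2-fold with the TMM factor and without doublet removal. A myeloid subcluster led by C1qa held 15 of 100 control and 154 of 323 TP cells, and its part in the result was not tested. Schwann-like cells had 0 of 4 members past 2-fold, against 5.67% of genes higher and 2.56% lower.

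The share of one gene among the UMIs of a collagen pair was compared between libraries where each held at least 50 UMIs of the pair. Of Col4a1 and Col4a2 UMIs together, Col4a2 made up 48.1% (47.3 to 48.9) in control and 42.7% (41.9 to 43.4) in TP over all cells. The same share was 48.01% (43.6 to 52.5) and 40.9% (39.4 to 42.4) in DF-like, 50.2% (43.7 to 56.7) and 36.99% (31.4 to 42.8) in endothelial-like and 44.8% (40.3 to 49.4) and 37.8% (35.8 to 39.9) in outer bulge-like cells. In these 3 classes the intervals do not overlap, and in the other 8 of 11 classes they do, DPC-like cells among them, at 48.5% (47.5 to 49.5) and 48.1% (46.7 to 49.5). For Col4a3 and Col4a4 the Col4a4 share was 74.3% (71.6 to 76.99) and 66.4% (64.01 to 68.7) over all cells, and the intervals overlap in all 4 classes compared, among them DF-like cells at 57.6% (50.4 to 64.6) and 61.9% (58.8 to 64.9). For the X-linked pair the Col4a6 share overlapped over all cells, at 45.3% (44.4 to 46.2) and 44.8% (43.96 to 45.6), and in 5 of 10 classes. In IFE basal-like cells, Col4a6 made up 53.1% (51.3 to 54.9) of Col4a5 and Col4a6 UMIs in control and 51.7% (50.4 to 53.1) in TP, which overlap. Its share was 47.2% (45.3 to 49.1) and 41.9% (40.3 to 43.6) in IFE suprabasal-like and 38.9% (34.8 to 43.1) and 24.8% (21.9 to 27.8) in granular-like cells, which do not. These shares use 1 library per condition and are free of its scaling.

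Other genes of the basement membrane were counted from 3 lists. Among 14 further components, 4 were past 2-fold higher over all cells, against 8.27% of all genes tested, and 0 lower, against 10.7%: Sparc, a collagen-binding matricellular protein, at 323 and 1331 CPM, and Fbln2, Tinagl1 and Ecm1. Of 20 receptors and linkers 2 were higher, Itgb6 and Itgb8, and 1 lower, Itga9. Of 11 assembly and crosslinking genes 1 was higher, Serpinh1, the collagen chaperone, at 35.8 and 84.7 CPM, and 0 were lower.
Within classes, the shares of all genes past 2-fold higher and lower were 3.65% and 7.28% in DPC-like, 2.84% and 9.52% in DF-like, 1.45% and 4.72% in IFE basal-like, 3.11% and 4.53% in outer bulge-like and 5.73% and 4.56% in endothelial-like cells. In DPC-like cells the components gave 1 of 11 higher, Fbln2 at 102 and 294 CPM, and 3 lower, Col18a1, Fbln1 and Ntn4. The receptors gave 0 of 18 higher and 3 lower, Itga1, Itga2 and Fermt1, and the assembly genes 0 of 10 higher and 1 lower, Grip1. DF-like cells had Serpinh1 higher and Hmcn2, Itga1 and Ddr1 lower, and IFE basal-like cells had Tinagl1 and Itgb6 higher and Col15a1, Fbln1 and Fermt2 lower. Outer bulge-like cells had Serpinh1 and Plod1 higher and Ntn1, Ntn4, Itga1 and P4ha2 lower, and endothelial-like cells Hmcn1 higher and Col15a1, Sparc and Itga1 lower. Itga1, a chain of a collagen-binding integrin, was thus lower past 2-fold in DF-like, DPC-like, outer bulge-like and endothelial-like cells, at 237 and 109.9 CPM in the DPC-like ones.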

How the data were processed

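Skin cells of the control and TP libraries were analysed, each from 1 pool of 15 mice. The authors made 3′ libraries, ran Cell Ranger 8.0.1 with the mm10 (GRCm38) annotation and deposited UMI counts for every gene and cell barcode as raw whole numbers. Whether reads in introns were counted is not given in the sources used here, and such reads would raise long genes.

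The control library held 45709 barcodes and 130999979 UMIs and the TP library 25931 and 166929585. A limit of 10% mitochondrial UMIs was exceeded by 3465 control and 5871 TP barcodes. Barcodes with 200 to 8000 genes and at most 10% mitochondrial UMIs were kept, and the 7.5% most like artificial doublets (a rewritten DoubletFinder step, 30 components) were removed per library. This left 107384769 and 133732791 UMIs. Seurat 5.3.0 in R 4.3.3 integrated both libraries by reciprocal PCA and clustered them at resolution 1. The members, the related genes and other genes with collagen, laminin or integrin symbols (132 in all) were kept out. Among these were the DF markers Col1a1 and Col3a1, which still served for naming. A cluster took the name of its highest-scoring markers where at least 3 were detected and the score reached 1.25, thresholds set after the clusters were seen, and mixed clusters were split at resolution 0.3. Of 43 clusters, 34 were named. The subclusters were examined as an alternative added after the data were seen.

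UMIs were summed per class and library in Python 3.11.15 (pandas 2.3.3, scipy 1.17.1, numpy 2.4.6). Intervals at 95% are exact Poisson for levels, exact conditional binomial for ratios and Clopper-Pearson for shares. The smallest level the depth allows to be seen is that of 3 UMIs. Shares of cells were computed after each cell was thinned to 1000 UMIs, and 5362 control and 876 TP cells were too shallow for it. The edgeR 4.0.16 TMM factors served as alternative scaling only, and no test was run. The scripts were tested on simulated data.

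All 34 members are named by role. Values are given for members past 2-fold in a class where the libraries together hold at least 50 UMIs, and for up to 4 members per role group with the most UMIs. Members and lists were chosen with earlier results of these data known. Promoter sequence and positions come from RefSeq tables of GRCm38.p6, which held promoters of 23 of the 34 members. 2 genes are not reported here.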

Additional observations from a re-analysis of the deposited data

Results flagged for a closer look

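For 7 members, counted where a library reached 10 CPM and the interval did not hold 1, the TP over control difference was past 2-fold one way in one class and the other way in another. The share of all genes meeting the same rule was not computed. The count of members, with or without the minimum of 10 CPM, therefore cannot be set against a background. With 1 library per condition these differences between classes were not tested. Each is given as the difference of the log2 ratios of TP over control. For Fras1 it was 3.60, between 1.14 in DPC-like and -2.46 in upper hair follicle-like cells, the latter from 57 UMIs of both libraries and without a value at 200 UMIs, at clustering resolution 2 or with thinned cells. The DPC-like log2 ratio of Fras1 was 0.53 without doublet removal and 0.97 with thinned cells. The Egflam difference was 2.93, between 1.28 in DPC-like cells and -1.65 in the class of medulla and companion layer. This last value came from 52 UMIs of both libraries, and there was none at 200 UMIs or with thinned cells. Frem2 differed by 2.36, with 1.09 in the Eda cluster and -1.28 in IFE suprabasal-like cells. Col4a1 differed by 2.55, with 1.45 in the histone gene cluster and -1.10 in the Gpc5 cluster. With the TMM factor its Gpc5 cluster ratio was 0.552 (0.431 to 0.710), short of 2-fold. The other 3 differences involve the unnamed cluster led by Hbb-bs and Hba-a1, whose cells were shallow, with medians of 775.5 control and 667 TP UMIs. They were 2.65 for Col17a1 (1.34 there and -1.31 in myeloid-like cells), 2.52 for Dst (1.35 there and -1.17 in granular-like cells) and 2.35 for Col4a5 (1.01 there and -1.34 in melanocyte-like cells). The melanocyte-like value of Col4a5 rested on 51 UMIs and the myeloid-like value of Col17a1 on 101. Neither had a value at 200 UMIs or with thinned cells. Without the minimum of 10 CPM there were 9 such members, with Frem1 and Lamc3 added. Frem1 differed by 3.88, between 2.69 in outer bulge-like and -1.19 in IFE suprabasal-like cells, and Lamc3 by 2.76, between 1.75 in DF-like and -1.003 in inner root sheath-like cells. With lower levels counted, Col4a1 differed by 2.86 and Frem2 by 2.55, each against granular-like cells.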

How the results depend on the processing

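Over whole libraries, 2 members past 2-fold became 4 with the TMM factor (Itga6 and Npnt added). They became 10 with means over cells of ln(counts per 10000 + 1), and 0 with log2 of counts per 10000 plus 0.1. At a mitochondrial limit of 20% they became 3, with Itga6 added. Of the alternatives in this section, the share of all genes past 2-fold was computed only for the TP cluster shares. The other counts of members therefore cannot be set against a background. At control cluster shares, 1 (Nid1) became 0 at clustering resolution 2, and at TP cluster shares it was 1 other member, Lamc3. Within classes, 54 became 19 at a minimum of 200 UMIs and 18 with thinned cells, and was 36 with TMM factors, 53 at resolution 2 (334 tests in 16 classes against 355 in 17, the endothelial-like class being below 50 control cells) and 47 without doublet removal. Apart from the minimum of 200 UMIs, each of these settings also called combinations that were not among the 54. In DF-like cells, 4 became 2 with the TMM factor (Lamc3 and Fras1) and 1 at 200 UMIs (Col4a3). With thinned cells there were 2, Col4a3 and Col4a4, of which Col4a4 was not among the 4. The 2 in the C3 subcluster (Lamb1 and Frem1) and the 1 in the Nova1 subcluster (Col4a4) were not among the 4 either. In DPC-like cells, 9 became 4 with thinned cells (Nid1, Egflam, Lama4 and Cd151), and Cd151 was not among the 9. The Ndnf subcluster also had 4 (Nid1, Lama5, Col4a5 and Frem2), of which Col4a5 and Frem2 were not among the 9. In IFE basal-like cells 1 became 0 with TMM and 0 at 200 UMIs. The log2 ratio of Col4a6 in germinative layer-like cells turned to 0.14 with thinned cells. Without thinning, the difference in share of cells with a UMI was 24.8 percentage points for Itgb1 in IFE basal-like cells, 40.9 for Nid1 and 34.7 for Lamc3 in DPC-like cells. The minimum, the thinning and the subclusters left a smaller number of genes or UMIs, and the cause of these moves was not tested. No paired analysis was possible because each condition has 1 library. For the same reason no replicate could be left out, and intervals cover counting error only, so differences between mice, dissociations and libraries cannot be told apart from the treatment.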
